A study of Mus musculus with 5 samples.

Results

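The tight junction genes described here are 9 of the 12934 genes in the table of RNA counts of this series, namely the claudins Cldn1, Cldn3, Cldn4 and Cldn7, the MARVEL-domain proteins Ocln and Marveld2, the adhesion molecule F11r, the scaffold Tjp1, and the claudin partner Epcam. They were picked by name as known tight junction genes, with earlier results of these data known, by matching the Ensembl identifiers of the table to GENCODE M21 gene symbols, and all 9 passed the filter on low counts. RNA was measured by poly(A)-selected sequencing in EpH4 cells, a non-transformed mouse mammary epithelial line from a BALB/c animal. All the cells carried lentiviral Cas9 and had passed selection with blasticidin and then puromycin; 3 libraries came from cells with a control guide RNA (sgControl) and 2 from cells with a guide RNA against the transcription factor gene Mef2d (sgMef2d). The methods list a pair of Mef2d guides, and the labels do not say which guide each sgMef2d library carried, nor whether libraries of a group came from separate cultures, so the p-values below measure the spread between these libraries, which may be technical.

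Tight junctions seal the space between neighbouring epithelial cells near their apical side. Claudins form the strands that set which ions and solutes pass, occludin and tricellulin run along the strands and at the corners where cells meet, junctional adhesion molecules help to place the junction, and the ZO scaffolds tie it to the actin cytoskeleton and to the polarity complexes. In the mammary gland the luminal cells hold these junctions, which close when milk is secreted, and loss of junction proteins is a known feature of epithelial cells that take on mesenchymal traits.

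The 5 libraries held between 13601145 and 20498563 counts, so that 3 counts corresponded to between 0.146 and 0.220 CPM, the unit of level used below (counts scaled by TMM to a common library total). The targeted gene itself, Mef2d, stood at 64.3, 76.9 and 71.5 CPM in the sgControl libraries and at 64.2 and 65.8 CPM in the sgMef2d libraries, and its log2 fold change of -0.12 (SE 0.080) did not pass the test (edgeR quasi-likelihood, adjusted p = 0.400). A small edit made by Cas9 need not lower the RNA of its gene, so the counts of Mef2d do not check the labels, and every direction below refers to the libraries as labelled. Of the luminal epithelial markers Krt8, Krt18, Krt19, Cdh1, Esrp1, Elf3 and Cd24a, 6 of 7 were listed, and their summed level was between 2349 and 2464 CPM in sgControl and 2308 and 2380 CPM in sgMef2d. Within this sum the keratin Krt18 fell by 0.26 on the log2 scale (edgeR adjusted p = 0.0207). Krt8, Esrp1, Cdh1, Elf3 and Cd24a had log2 fold changes of 0.00087, -0.09, 0.13, 0.35 and 0.15 that did not pass. Of the basal and myoepithelial markers 5 of 7 were listed, and their sum was between 483 and 492 CPM in sgControl and 950 and 1008 CPM in sgMef2d. Most of this sum was the keratin Krt14, which had 443, 436 and 439 CPM in sgControl and 875 and 929 CPM in sgMef2d (log2 fold change 1.04, edgeR adjusted p = 1.68e-06). Trp63 and Krt17 rose by 0.74 and 2.29 on the log2 scale (edgeR adjusted p = 4.84e-04 and 0.00438). Krt5 was at or below 0.146 CPM in sgControl and at 15.3 and 14.2 CPM in sgMef2d, while Acta2, a smooth muscle actin of myoepithelial cells, fell by 0.81 on the log2 scale (edgeR adjusted p = 0.00237). Of the fibroblast markers 6 of 8 were listed, with sums between 643 and 767 CPM in sgControl and of 608 and 649 CPM in sgMef2d. In that sum Col1a2 fell by 0.54 on the log2 scale (edgeR adjusted p = 2.32e-04), while Col3a1 rose by 1.45 (edgeR adjusted p = 0.00142) and Dcn by 1.23 (edgeR adjusted p = 0.0203). Of the immune markers 1 of 6 was listed (Csf1r, between 2.35 and 3.33 CPM over all libraries), and of the endothelial markers 0 of 5. In bulk libraries fewer cells of a type and less RNA per cell cannot be told apart, and the part of these marker levels in the results below was not tested.

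Of the 9 members, 1 passed the threshold, an adjusted p below 0.05, in the comparison of sgMef2d with sgControl: Cldn4 was higher. Over all 12483 genes tested, 7.95% passed it, so 1 of 9 is near the background. The members divided into 5 with a positive and 4 with a negative log2 fold change, their median was 0.04, and the median size of their change was 0.099 against 0.121 over all genes tested. By size of change, Ocln exceeded 79.1% and Cldn4 77% of the genes tested, and the others lay between the 16.9 and 53.5 percentiles. In 4 members the CPM of the groups did not overlap, beside a background of 41.1% of all genes tested. Of these, 3 were higher in sgMef2d (Cldn4, Ocln and Epcam, background 20.6%) and 1 was lower (F11r, background 20.5%). Besides Cldn4, Ocln and Epcam had an unadjusted p below 0.05, which did not hold after adjustment.

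The gene next to Cldn4 on chromosome 5 is Cldn3, and their upstream sequences are printed because Cldn4 was the member that rose and its neighbour did not. The upstream window of Cldn1 is printed because it was the one of 12 member windows with a match to the MEF2 consensus, the motif of the family of the targeted factor. Each line gives the 250 bases before the start site, 5′ to 3′ on the strand of the gene, from RefSeq on GRCm38.p6. Capitals mark motif matches on either strand: CACCTG (an E-box), GGGCGG (a GC box, which reads CCGCCC on the other strand) and the MEF2 consensus.
Cldn4, chr5:134946935-134947184, minus strand: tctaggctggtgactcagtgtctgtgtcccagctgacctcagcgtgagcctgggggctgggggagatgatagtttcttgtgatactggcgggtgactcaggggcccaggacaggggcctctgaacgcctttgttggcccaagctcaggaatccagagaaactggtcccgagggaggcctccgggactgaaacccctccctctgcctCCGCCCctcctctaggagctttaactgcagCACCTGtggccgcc
Cldn3, chr5:134985964-134986213, plus strand: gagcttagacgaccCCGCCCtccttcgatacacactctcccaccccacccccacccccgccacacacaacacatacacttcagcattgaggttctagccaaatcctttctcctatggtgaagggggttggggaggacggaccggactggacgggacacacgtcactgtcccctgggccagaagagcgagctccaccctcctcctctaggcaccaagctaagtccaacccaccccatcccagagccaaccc
Cldn1, chr16:26371840-26372089, minus strand: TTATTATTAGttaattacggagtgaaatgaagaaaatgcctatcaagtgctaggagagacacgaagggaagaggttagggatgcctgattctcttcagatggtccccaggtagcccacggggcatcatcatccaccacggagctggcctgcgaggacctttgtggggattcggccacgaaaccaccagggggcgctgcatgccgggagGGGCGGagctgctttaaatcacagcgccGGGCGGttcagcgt
In the window of Cldn4, CACCTG lay 14 bases and the GC box 44 bases before the start. Cldn3 had a GC box 236 bases before its start and no E-box of these letters. The MEF2 match of Cldn1 began 250 bases before the start, at the far edge of its window. The windows of Cldn4 and Cldn3 had a GC content of 62% and 60.8%.

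All 9 members had at least 1 window in the promoter table, 12 windows in all. The motifs searched, on both strands, were the MEF2 consensus, CACCTG, AACCNGTT (the letters bound by grainyhead-like factors), GGGCGG and TATAAA, and none of these overlapped within the printed windows. GGGCGG was found in 11 of the 12 member windows, at least 1 for each of the 9 members, where 32.7% of all 32851 windows of the same length hold it. CACCTG was found in 5 of 12 windows, 1 each for Cldn4, Cldn7, Epcam, F11r and Ocln, with 17.2% of all windows holding it. TATAAA was in 2 of 12 windows, both of Marveld2 (12.4% of all windows), and AACCNGTT in 0 of 12 (1.79% of all windows). The MEF2 consensus, in 1 of 12 windows, was in 1.69% of all windows. Windows of 1 gene can overlap and share a match. These matches describe the letters of the windows, and a member with no match may still hold a site outside them.

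The levels of the members were compared with each other per length, as RPKM, the CPM divided by the length of the exons in kilobases. Cldn3 was highest at 146 ± 6.47 RPKM (SD, n = 3) in sgControl, followed by Epcam at 116 ± 0.909 and Cldn4 at 88.3 ± 6.28 RPKM. Cldn7, at 44.9 ± 1.18 RPKM, F11r, at 37.9 ± 0.960 RPKM, and Tjp1, at 34.3 ± 3.16 RPKM, formed a middle range. Cldn1, at 7.31 ± 0.751 RPKM, Marveld2, at 5.73 ± 0.261 RPKM, and Ocln, at 2.97 ± 0.383 RPKM, were lowest. Cldn3 exceeded 97.8% and Ocln 32.4% of all genes tested in sgControl RPKM. The order of the 9 members by mean RPKM was the same in both groups. No neighbours in this order overlapped over the libraries of a group. F11r and Tjp1 came closest in sgControl, where Tjp1 ranged from 30.8 to 37.0 RPKM and F11r from 37.1 to 39.0 RPKM. Dividing by the longest annotated transcript kept this order, while the shortest coding transcript did not, since it placed Tjp1 first at 487 RPKM.

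**Figure D1:**
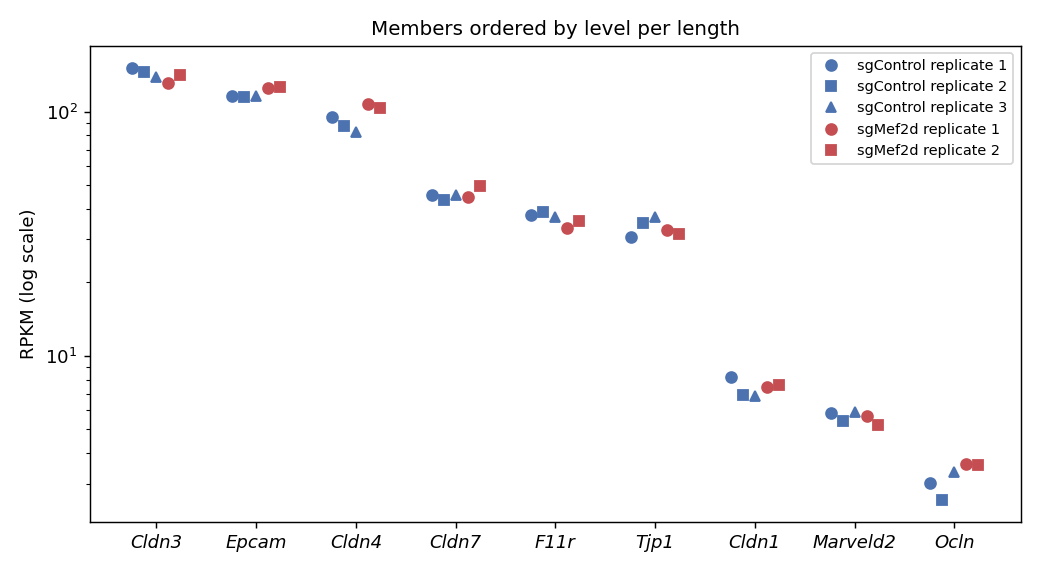
Level per length of the 9 members in each library, in RPKM on a log scale, ordered by the sgControl mean, with sgControl in blue and sgMef2d in red. Cldn3, Epcam and Cldn4 lie highest and Cldn1, Marveld2 and Ocln lowest in both groups.

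Claudins are proteins that cross the membrane several times and whose outer loops pair between cells. Cldn4, Cldn3, Cldn7 and Cldn1 are mostly counted among the sealing claudins. Cldn4 (ENSMUSG00000047501.3, GRCm38 chr5:134945119-134946934, minus strand, 1 exon) stood at 172, 159 and 150 CPM in the sgControl libraries and at 195 and 188 CPM in the sgMef2d libraries. Both sgMef2d libraries lay above all 3 sgControl libraries, of which replicate 1 was nearest. The mean rose from 160 ± 11.4 (SD, n = 3) to 192 ± 4.61 CPM (SD, n = 2), a fold of 1.19 (95% interval 1.08 to 1.32), with a log2 fold change of 0.26 (SE 0.067, edgeR quasi-likelihood adjusted p = 0.0407). The call stood close to the threshold and passed in 9 of 15 alternative analyses. Apart from the fit without sgControl replicate 1, those that passed changed only the scaling, the filter, the test form or the tool. Among the 6 that lost it were the fits without sgControl replicate 2 or 3 (edgeR adjusted p = 0.1355 and 0.113). The fit with the length and GC trends of the libraries removed by loess lost it too (log2 fold change 0.17, edgeR adjusted p = 0.0677). Without sgMef2d replicate 1 or 2 the log2 fold change was 0.23 or 0.28.

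Cldn3 (ENSMUSG00000070473.4, chr5:134986214-134987472, plus strand, 1 exon) lies 39279 bases from Cldn4 with 0 annotated genes between them, and the pair is transcribed away from each other. It was measured at 191, 184 and 175 CPM in sgControl and at 165 and 177 CPM in sgMef2d. The groups overlapped, since sgMef2d replicate 2 lay above sgControl replicate 3. The log2 fold change was -0.10 (SE 0.063, 95% interval -0.24 to 0.04) and did not pass the test (edgeR adjusted p = 0.386). With the trend with length and GC content removed, the log2 fold change was -0.22 (edgeR adjusted p = 0.00796), which was the 1 alternative of 15 in which Cldn3 passed. Its transcript is short and rich in GC, 1259 bases with 62.7% GC, against a median longest transcript of 3326 bases and 49.4% GC over all genes tested. An exon of Cldn3 overlaps Wbscr25 on the opposite strand by 40 bases, and reads there cannot be assigned without knowing the strand setting of the counts.

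Cldn7 (ENSMUSG00000018569.12, chr11:69964779-69967885, plus strand), a claudin that binds EpCAM, had 89.1, 84.8 and 88.5 CPM in sgControl and 86.9 and 96.8 CPM in sgMef2d. Only sgMef2d replicate 2 stood above the sgControl range, and the log2 fold change was 0.07 (SE 0.067, edgeR adjusted p = 0.584). Cldn1 (ENSMUSG00000022512.3, chr16:26356642-26371841, minus strand), which is needed for the barrier of the skin, had 39.6, 33.4 and 33.2 CPM in sgControl and 36.1 and 37.0 CPM in sgMef2d. Both sgMef2d libraries of Cldn1 lay inside the sgControl range, whose top was replicate 1, and the log2 fold change was 0.04 (SE 0.091, edgeR adjusted p = 0.851). The 95% intervals of the fold were 0.948 to 1.16 for Cldn7 and 0.893 to 1.18 for Cldn1.

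Among all listed claudins, the 4 members held between 92.9% and 93.6% of the summed claudin RPKM in every library. That sum itself was 321, 305 and 295 RPKM in sgControl and 311 and 323 RPKM in sgMef2d, with overlapping groups. Within it the share of Cldn3 was 47.4% ± 0.436 in sgControl (SD, n = 3) and 42.9% ± 1.05 in sgMef2d (SD, n = 2). The share of Cldn4 was 28.7% ± 0.775 in sgControl and 33.3% ± 1.67 in sgMef2d. Cldn7 took 14.6% ± 0.673 and 14.9% ± 0.748, and Cldn12, which is no member, 6.40% ± 0.290 and 5.83% ± 0.105. In both sgMef2d libraries the share of Cldn4 lay above, and that of Cldn3 below, its share in every sgControl library. The ratio of Cldn4 to Cldn3 RPKM within a library was 0.626, 0.598 and 0.594 in sgControl and 0.818 and 0.736 in sgMef2d. The groups did not overlap in this ratio, which was chosen after the values were seen and is given as a description, without a test.

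**Figure D2:**
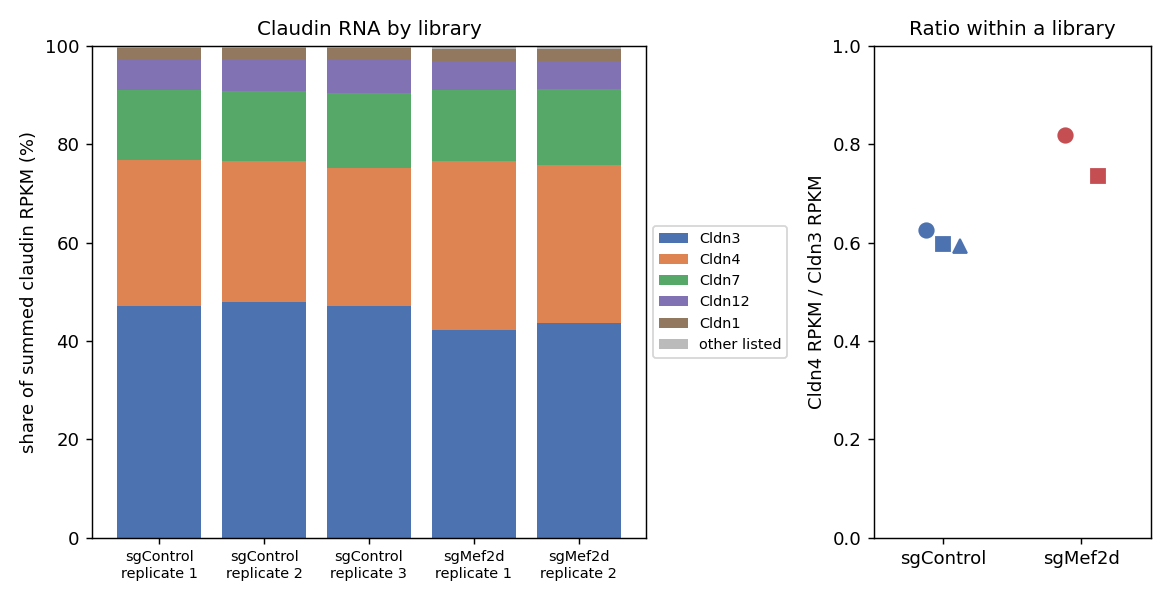
Left, share of each claudin in the summed claudin RPKM of each library, in percent; right, ratio of Cldn4 to Cldn3 RPKM per library, from 0. Cldn4 takes 28.7% in the mean of sgControl and 33.3% in that of sgMef2d, and both sgMef2d ratios lie above all sgControl ratios.

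Occludin and tricellulin share the MARVEL domain. Ocln (ENSMUSG00000021638.12, chr13:100496507-100552718, minus strand) was measured at 12.7, 10.8 and 14.1 CPM in sgControl and at 15.2 CPM in both sgMef2d libraries. These values rest on between 153 and 261 counts, the fewest of the members. Both sgMef2d libraries lay above the highest sgControl library, replicate 3. The log2 fold change was 0.28 (SE 0.12, 95% interval 0.01 to 0.54), the highest among the members and with the widest interval, and it did not pass (edgeR adjusted p = 0.198).

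Marveld2, the gene of tricellulin (ENSMUSG00000021636.15, chr13:100595957-100616971, minus strand), lies 43238 bases from Ocln with 0 protein-coding genes between. It had 19.7, 18.4 and 20.01 CPM in sgControl and 19.2 and 17.6 CPM in sgMef2d. The groups overlapped, and the log2 fold change was -0.07 (SE 0.095, 95% interval -0.28 to 0.14, edgeR adjusted p = 0.713). The ratio of Ocln to Marveld2 RPKM was 0.516, 0.473 and 0.563 in sgControl and 0.634 and 0.688 in sgMef2d, without overlap. Like the claudin ratio, it was chosen with the values in view and carries no test.

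F11r, which encodes JAM-A, an adhesion molecule of the immunoglobulin family (ENSMUSG00000038235.4, chr1:171437535-171464603, plus strand), had 100.4, 104 and 98.7 CPM in sgControl and 89.2 and 95.0 CPM in sgMef2d. Both sgMef2d libraries lay below all sgControl libraries. The log2 fold change was -0.13 (SE 0.062, 95% interval -0.27 to 0.0030), which did not pass (edgeR adjusted p = 0.225). Of the 50-base words in its exons, 22, or 0.83%, occur in transcripts of other genes, while the other 8 members share 0 such words.

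Tjp1 encodes ZO-1, the scaffold that binds claudin tails and actin (ENSMUSG00000030516.14, chr7:65296165-65527781, minus strand). Its levels were 241, 275 and 289 CPM in sgControl and 256 and 248 CPM in sgMef2d. Both sgMef2d libraries lay inside the sgControl range, between replicate 1 and replicate 2. The log2 fold change was -0.09 (SE 0.075, 95% interval -0.26 to 0.07, edgeR adjusted p = 0.523). Without sgControl replicate 1 it was -0.16 with an edgeR adjusted p of 5.53e-04, and with the length and GC trend removed it was -0.00034 (edgeR adjusted p = 0.997).

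Epcam encodes a cell-surface glycoprotein of epithelia that binds Cldn7 protein and slows its degradation (ENSMUSG00000045394.9, chr17:87635979-87651129, plus strand). It stood at 255, 251 and 255 CPM in sgControl and at 276 and 278 CPM in sgMef2d. Both sgMef2d libraries were above all sgControl libraries, and the means were 254 ± 1.996 (SD, n = 3) and 277 ± 1.56 CPM (SD, n = 2). The log2 fold change was 0.13 (SE 0.053, 95% interval 0.0088 to 0.24), a fold of 1.09, and it did not pass (edgeR adjusted p = 0.183). The ratio of Epcam to Cldn7 RPKM overlapped between the groups, at 2.54, 2.63 and 2.56 in sgControl and 2.82 and 2.55 in sgMef2d.

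**Figure D3:**
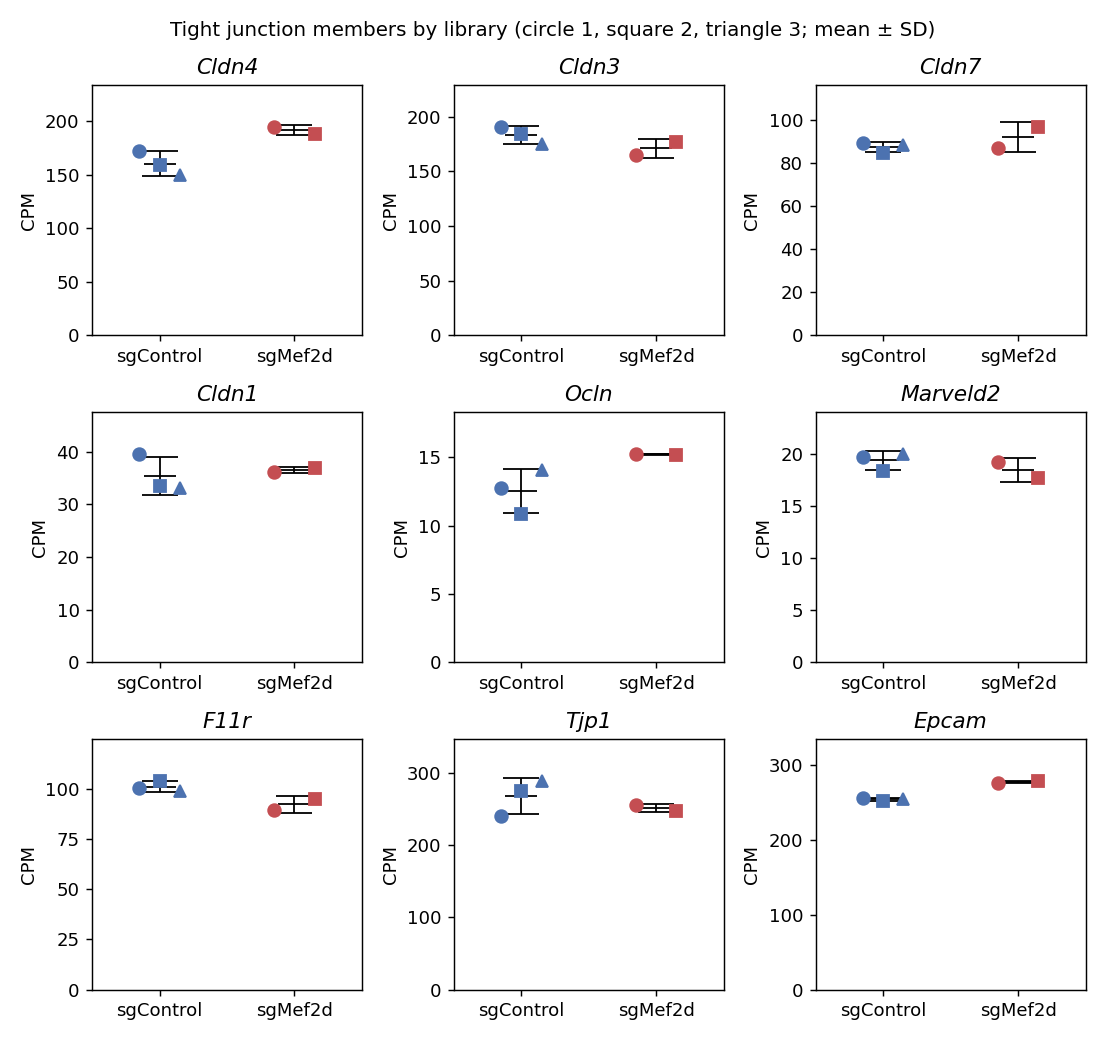
CPM of each member in every library, on axes from 0, with circles, squares and triangles for replicates 1, 2 and 3 and bars for the mean and SD of a group. The groups do not overlap for Cldn4, Ocln, F11r and Epcam, and of these Cldn4 passed the threshold.

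The library sgControl replicate 1 differed from the other sgControl libraries in its trend with transcript length. Among the 3121 genes with the shortest transcripts (median 1516 bases) the median log2 CPM, centred per gene, was 0.064 in that library, -0.054 and -0.075 in the other sgControl libraries, and 0.036 and 0.046 in the sgMef2d libraries. Among the 3118 genes with the longest transcripts (median 6257 bases) it was -0.051 against 0.060 and 0.071 in sgControl and -0.028 and -0.041 in sgMef2d. In this trend that library lay on the side of the sgMef2d libraries. Without it the length trend separates the groups, so group and length trend cannot be told apart in that fit. There 4 of the 9 members passed, where 29.4% of all genes tested did. Cldn4 (log2 fold change 0.31, edgeR adjusted p = 2.95e-09) and Epcam (0.13, edgeR adjusted p = 0.00661) were higher, and F11r (-0.14, edgeR adjusted p = 0.0284) and Tjp1 (-0.16) were lower.

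**Figure D4:**
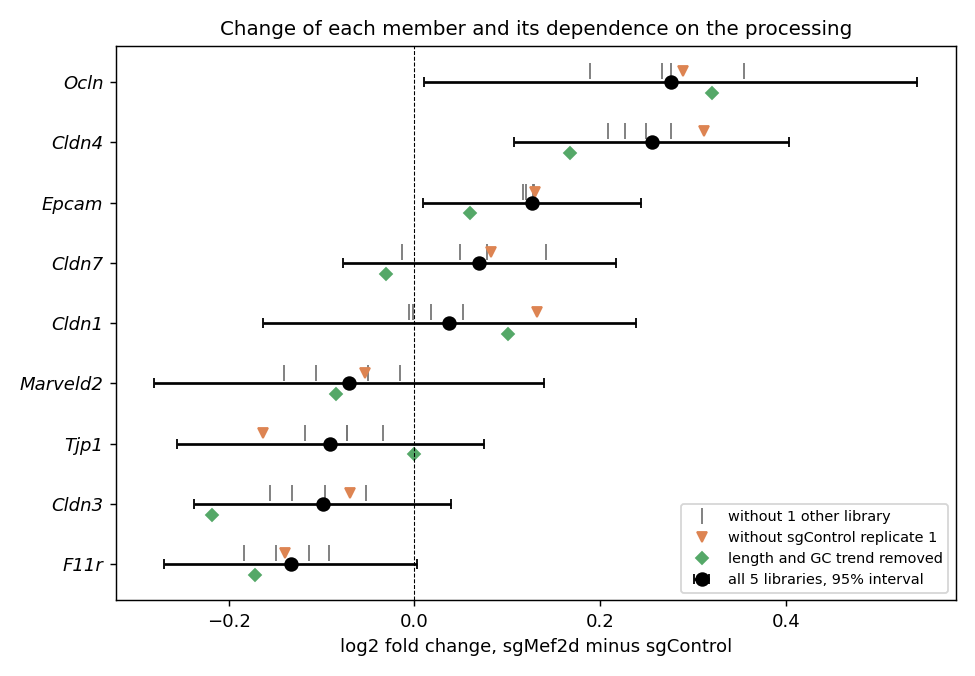
Log2 fold change of each member, sgMef2d minus sgControl, with the 95% interval over all 5 libraries (black), without sgControl replicate 1 (orange), without another single library (grey ticks) and with the length and GC trend removed (green). The values of Cldn4, Ocln and Epcam stay to the right of 0 under these settings. Those of Cldn3, F11r, Marveld2 and Tjp1 stay to the left, with Tjp1 at -0.00034 where the trend is removed, while Cldn7 and Cldn1 cross it. The 95% intervals lie clear of 0 for Cldn4, Ocln and Epcam.

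The wider tight junction pathway was read from 78 genes in 6 lists by role, of which 58 were listed and 57 tested. Of these 57, 4 rose and 7 fell, beside 3.67% of all genes tested that rose and 4.28% that fell. Their median log2 fold change was 0.01, and the median size was 0.173 against 0.121 over all genes. The scaffold and polarity lists, which hold 17 and 13 of the 57, had 7 of the 11 that passed.

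Of the 19 other claudins, 4 were listed and 3 tested, and 0 passed. Cldn12, at 83.1, 82.5 and 83.4 CPM in sgControl and 77.6 and 78.5 CPM in sgMef2d, had a log2 fold change of -0.09 (edgeR adjusted p = 0.412). Cldn23 had 1.02, 1.06 and 1.10 CPM in sgControl and 1.94 and 1.62 CPM in sgMef2d, and its log2 fold change of 0.75 did not pass (edgeR adjusted p = 0.143).

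Among 9 other membrane proteins tested, 1 rose and 1 fell, both of the immunoglobulin family like F11r. Clmp, an adhesion molecule resembling the coxsackievirus and adenovirus receptor, had 12.1, 14.6 and 13.5 CPM in sgControl and 21.0 and 22.0 CPM in sgMef2d. It rose by 0.69 on the log2 scale (SE 0.11, edgeR adjusted p = 0.00245). Cxadr, that receptor itself, had 126, 132 and 134 CPM in sgControl and 109 and 105 CPM in sgMef2d. It fell by 0.29 on the log2 scale (SE 0.060, edgeR adjusted p = 0.0131), and with Cxadr as with Clmp the groups did not overlap. Clmp passed with any 1 of the sgControl libraries left out, and Cxadr lost its call without sgControl replicate 2 (edgeR adjusted p = 0.0576). Without sgMef2d replicate 1 the log2 fold changes of Clmp and Cxadr were 0.72 and -0.33, and without sgMef2d replicate 2 they were 0.65 and -0.27.

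The matriptase gene St14, whose protease cuts EpCAM, its partner Prss8 and its inhibitors Spint1 and Spint2 did not pass, with log2 fold changes between -0.08 and 0.16.

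Of 17 scaffold and plaque genes other than Tjp1, 0 rose and 4 fell, 14 had a negative log2 fold change, and the median was -0.17. Cgnl1 (paracingulin, a plaque protein that binds ZO-1) had 455, 518 and 531 CPM in sgControl and 396 and 422 CPM in sgMef2d, and fell by 0.29 on the log2 scale (SE 0.073, edgeR adjusted p = 0.0332). Mpdz (MUPP1, a scaffold with many PDZ domains that binds claudins and JAM-A) had 144, 165 and 160.3 CPM in sgControl and 120.1 and 123 CPM in sgMef2d, and fell by 0.37 (SE 0.068, edgeR adjusted p = 0.00764). In these genes, as in the next pair, every sgMef2d library lay below every sgControl library. Magi3, an inverted membrane-associated guanylate kinase, had 83.1, 93.8 and 93.3 CPM in sgControl and 71.1 and 63.1 CPM in sgMef2d, and fell by 0.42 (SE 0.079, edgeR adjusted p = 0.00750). Amot (angiomotin, which binds Patj and the Hippo effector YAP) had 29.4, 32.5 and 34.9 CPM in sgControl and 22.2 and 23.0 CPM in sgMef2d, and fell by 0.51 (SE 0.094, edgeR adjusted p = 0.00701). Cgn, the cingulin gene, and Afdn, the afadin gene, had log2 fold changes of -0.12 and -0.17 and did not pass (edgeR adjusted p = 0.412 and 0.127).

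The scaffold genes are long, with a median longest transcript of 6578 bases against 2518 for the members and 3326 over all genes tested, and the libraries differed in their trend with length, as given above. With the trends with length and GC content removed, Cgnl1, Magi3, Mpdz and Amot passed and the list's median was -0.12. Without sgControl replicate 1, 11 scaffold genes passed as lower and 1 as higher, where 14.8% of all genes tested passed as lower and 14.6% as higher. Without sgMef2d replicate 1 the log2 fold changes of Cgnl1, Magi3, Mpdz and Amot were -0.25, -0.52, -0.35 and -0.49. Without sgMef2d replicate 2 they were -0.34, -0.34, -0.38 and -0.54. Cgnl1 lost its call without sgControl replicate 2 or 3 (edgeR adjusted p = 0.131 and 0.0805).

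Of 13 polarity genes tested, 1 rose and 2 fell. Llgl2, a basolateral polarity protein, had 31.0, 29.2 and 33.1 CPM in sgControl and 39.5 and 37.8 CPM in sgMef2d, and rose by 0.31 on the log2 scale (SE 0.080, edgeR adjusted p = 0.0362). Prkci, the atypical protein kinase C of the apical PAR complex, had 204, 221 and 229 CPM in sgControl and 187 and 182 CPM in sgMef2d, and fell by 0.24 (SE 0.063, edgeR adjusted p = 0.0402). Pard3b, a relative of the PAR complex scaffold Pard3, had 5.27, 6.67 and 5.86 CPM in sgControl and 4.002 and 3.03 CPM in sgMef2d, and fell by 0.73 (SE 0.19, edgeR adjusted p = 0.0412). The groups of all of these genes were apart, as in 41.1% of all genes tested. With sgControl replicate 2 left out, 0 of the 13 polarity genes passed, beside 603 of 12468 genes tested. Without sgMef2d replicate 1 the log2 fold changes of Llgl2, Prkci and Pard3b were 0.28, -0.27 and -0.96. Without sgMef2d replicate 2 they were 0.34, -0.23 and -0.56. The calls also depended on the tool, since Pard3b did not pass with DESeq2 or limma-voom (adjusted p = 0.0656 and 0.0590) and Llgl2 did not pass with DESeq2 (adjusted p = 0.0784). Pard3 itself had a log2 fold change of 0.01, and the apical scaffold Mpp5 one of -0.27 (edgeR adjusted p = 0.0578). Scrib had one of 0.22 (edgeR adjusted p = 0.0635), and it passed as higher with the length and GC trends removed.

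Among 10 transcription regulators of junction genes, Grhl3 rose and 9 had a positive log2 fold change, beside 6326 of all 12483 genes tested. The list holds epithelial factors as well as claudin repressors. Grhl3, a grainyhead-like factor of epithelial barriers, had 0.488, 0.496 and 0.440 CPM in sgControl and 3.71 and 2.83 CPM in sgMef2d. These values rest on 10, 7 and 6 counts and on 63 and 42 counts. Its log2 fold change of 2.77 (SE 0.31), a fold of 6.81 with a 95% interval of 4.24 to 10.9, had an edgeR adjusted p of 3.89e-04 and passed in 15 of 15 alternatives. Grhl2, at 6.98 RPKM in sgControl the highest of the grainyhead-like genes, had a log2 fold change of 0.13 (edgeR adjusted p = 0.401). The claudin repressors Snai1, Snai2, Zeb1 and Zeb2 had log2 fold changes between -0.0035 and 0.19, and the epithelial factors Elf3, Ovol1 and Ovol2 between 0.35 and 0.51, and none of these 7 passed (edgeR adjusted p between 0.0679 and 0.991). Elf3 and Snai1 passed as higher without sgControl replicate 1, and Zeb2 did with the length and GC trends removed.

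**Figure D5:**
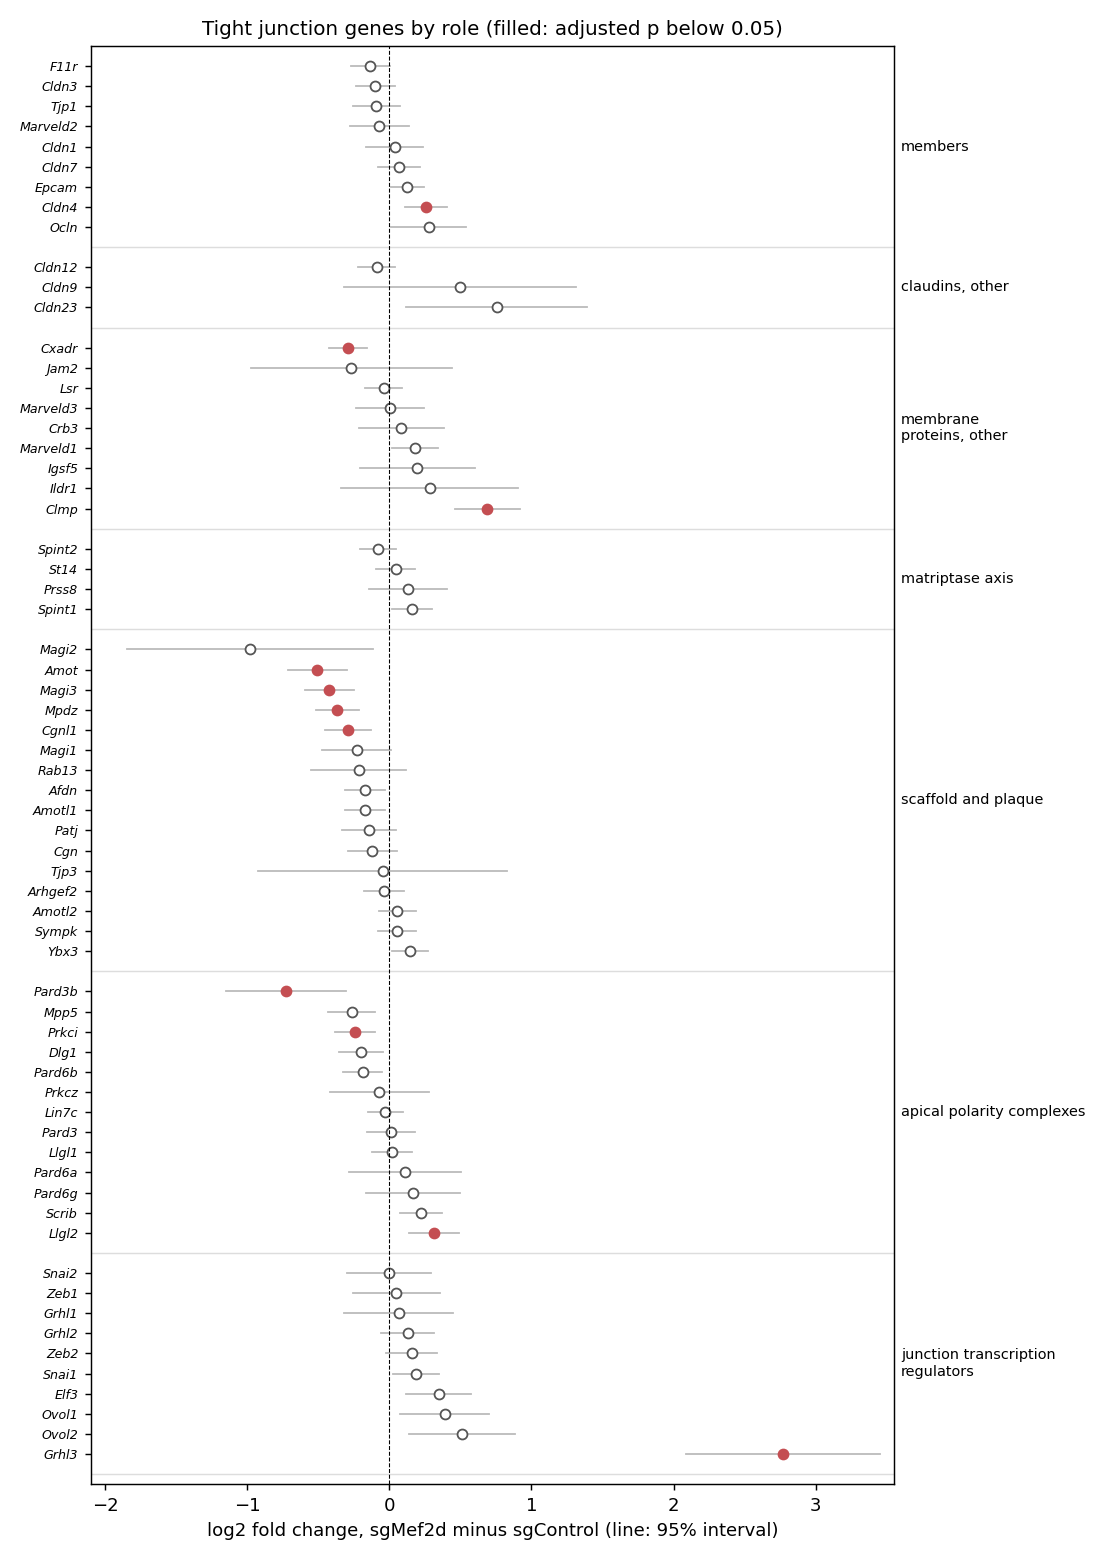
Log2 fold change, sgMef2d minus sgControl, with its 95% interval for the tight junction genes reported here, grouped by role and filled where the adjusted p is below 0.05. Amot, Magi3, Mpdz and Cgnl1 lie left of 0 in the scaffold and plaque list, and Grhl3, at 2.77, lies farthest to the right.

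Over the 5 libraries, the genes whose log2 CPM followed Cldn4 most closely, among 8044 genes whose average log2 CPM was 4 or more, were Cdca3 and Zfp444. Their root mean square distance from Cldn4 after centring was 0.0185 and 0.0187 on the log2 scale. Their own log2 fold changes were 0.27 and 0.24, and neither passed the threshold (edgeR adjusted p = 0.0531 and 0.170).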

How the data were processed

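RNA of 5 libraries of Cas9-expressing EpH4 cells was analysed, 3 sgControl and 2 sgMef2d, grouped by the treatment in their labels. The authors deposited raw counts per gene, whole numbers without normalization, on GRCm38. The submitters' processing notes name CASAVA, STAR and Subread, and the methods name FASTQC and RSeQC. The kit marks strand, and the strand setting of the counts is not given in the sources used here. The methods give another GENCODE release than M21, which all 12934 identifiers matched. Every listed gene had at least 11 counts in 1 library, so a low-count filter had been applied, and the totals cover listed genes only. Columns of per-sample values left unused: 0. Entries without a gene name: 0.

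The deposited counts were scaled with TMM factors in edgeR 4.0.16 under R 4.3.3 (0.996 to 1.003). Its default expression filter by group kept 12483 genes. The test was edgeR's quasi-likelihood test (bias-adjusted), with Benjamini-Hochberg adjustment over all genes tested and a threshold of 0.05. The common dispersion was 0.00369. RPKM used TMM-scaled counts and the union of exons in GENCODE M21. Fold changes are edgeR's fitted values. The scripts were tested on simulated data. Intervals cover the spread of these libraries as fitted, without correction for PCR copies.

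The named genes were all 9 members, every gene past the threshold in 6 further lists of tight junction genes, the 3 genes nearest in pattern to the member with the smallest p, Mef2d and markers by range. A few genes that this rule or the lists hold are not reported here by name, and the counts include them. Genes named beside these that did not pass were chosen after their values were seen. The members and lists were chosen with earlier results of these data known. The alternatives were RLE, upper quartile or total-count scaling, DESeq2 1.42.0, limma-voom 3.58.1, the legacy form, other filters (none, or 1 CPM in 2 libraries), a replicate block, loess removal (span 0.3) of length and GC trends, and leaving out each library. With 1 sgMef2d library left, it was assumed to vary like the sgControl libraries.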

Additional observations from a re-analysis of the deposited data

How the results depend on the processing

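The count of members past the threshold was 1 under every change of scaling, filter or tool, 0 with a replicate block, and between 0 and 4 when 1 library was left out. Where the length and GC trend was removed, the 1 member was Cldn3, lower, in place of Cldn4. The median log2 fold change of the 9 members lay between -0.013 and 0.082 and changed sign among the alternatives. Among the other tight junction genes, 11 passed, between 9 (DESeq2) and 14 (trend removed) under these changes, and between 1 and 26 when 1 library was left out. Over all genes, 992 passed, and 234 to 3639 when 1 library was left out, the highest without sgControl replicate 1, where Mef2d passed too (log2 fold change range -0.19 to -0.060). The labels do not say whether the replicate numbers pair the libraries. Deviations of same-numbered libraries from their group means correlated at 0.011 and -0.00092. Both values use the same sgMef2d deviations apart from sign, so they cannot decide it. The replicate block gave 1254 calls over all genes. Under it Cldn4 (log2 fold change 0.21, edgeR adjusted p = 0.0905) and Prkci (edgeR adjusted p = 0.103) did not pass. Elf3, Ovol2 and Scrib passed as higher under the block, and Cldn1 changed sign to -0.00068. Left-out libraries gave Cldn1 between -0.0062 and 0.13 and Cldn7 between -0.013 and 0.14, and trend removal gave Cldn7 -0.031. Both are near 0 against their SE, and the cause was not tested. The other members kept their sign under every alternative run. Genes with few counts, such as Grhl3 with 6 to 10 in sgControl, are limited by counting error.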
